A study of Homo sapiens with 2 samples.

Results

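The TGF-beta and BMP pathway was described here through 43 genes, chosen by name as its ligands, latent binding proteins, receptors, SMADs, ID target genes, antagonists and feedback regulators. Of these, 42 had at least 1 probe set whose platform annotation gives that symbol alone, 128 probe sets in all, out of 19775 such genes and 54675 probe sets on the array. No probe set for BMPR1A was analysed here. RNA came from 2 stable populations of Panc1, a human pancreatic adenocarcinoma line. The Panc1/syk-wt population carries transfected wild-type SYK, an intracellular tyrosine kinase, and the Panc1/mock population the vector alone, and both were kept under hygromycin selection. The question put to the arrays is how gene expression changes once SYK is expressed again in this line, and the series title calls the mock cells drug-resistant. There was 1 array per population, so each value is a single measurement without replicate error, no test was possible, and population, RNA preparation and array cannot be told apart.

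TGF-beta family ligands are secreted dimers that bring together type II and type I serine/threonine kinase receptors. TGF-beta and activin receptors act mainly through SMAD2 and SMAD3, BMP receptors through SMAD1, SMAD5 and SMAD9, and both arms share SMAD4. The ID genes are well-known direct targets of BMP signalling, and SMAD6 and SMAD7 are inhibitory SMADs that close negative feedback loops. In pancreatic cancer cells the pathway is known for growth arrest and for the transition from an epithelial to a mesenchymal state.

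Values are RMA log2 intensities, so a difference of 1 is 2-fold. The medians of the 54675 probe sets were 4.24 on the syk-wt array and 4.26 on the mock array, and 18 hybridisation spikes differed by -0.22 to 0.14. The brightest of 4 SYK probe sets read 4.73 on the syk-wt array and 4.27 on the mock array, both below the highest value of 27 bacterial control probe sets (4.77), and the others differed by -0.27 to -0.07. SYK thus gave no check of the labels, and all directions rest on them. ACTB signal at the 3' end exceeded that at the 5' end by 2.37 on the syk-wt array and 1.95 on the mock array. For GAPDH the same gap was 0.32 on syk-wt and 0.19 on mock. The part of these gaps in the results was not tested. Ductal and other epithelial markers lay above 4.77 in 5 of 6 genes on the syk-wt array and in 6 of 6 on the mock array, CDH1 being the exception at 3.47 on syk-wt and 6.34 on mock. Of these markers, 5 of 6 were lower on syk-wt, among them KRT19 (9.44 on syk-wt, 10.88 on mock) and KRT8 (10.30 on syk-wt, 11.06 on mock), and EPCAM was higher (7.08 on syk-wt, 6.77 on mock). The log2 of their summed intensity was 13.43 on syk-wt and 13.84 on mock, and their part in the results was not tested. All 3 measured leukocyte markers, 3 endothelial markers and 3 acinar or endocrine markers lay below 4.77 on both arrays, between 2.98 and 4.70 on syk-wt and between 2.79 and 4.70 on mock. Of 6 fibroblast markers, 4 lay below 4.77 on both arrays.

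Across the pathway, the receptors TGFBR3 and BMPR2, the ligand TGFB2 and the inhibitory SMAD6 were at least 2-fold lower in syk-wt cells, and ID2, SMAD9 and the latent TGF-beta binding protein LTBP1 at least 2-fold higher. A gene was represented by its brightest probe set (by the mean of both arrays), and entered the counts when that mean reached 4.25, the 50th percentile of all probe sets. BMP2, INHBA, ID4, GREM1 and BAMBI did not reach it, which left 37 members. Of these, 3 (8.11%) were higher and 4 (10.8%) lower by 2-fold or more, against 3.61% higher and 3.65% lower among all 12814 genes past the filter (7.26% in either direction). The members were chosen with earlier results of these data known, so the gap between these shares is no test of enrichment. With both arrays floored at 4.77 the members still numbered 3 higher and 4 lower, against 3.08% higher and 3.34% lower among all genes (6.42% in either direction). The median difference was -0.18 over the members and 0.01 over all genes, with 13 members above 0 and 24 below. Of all genes past the filter, 6506 lay above 0 and 6124 below. ID2 passed the filter through the syk-wt array alone. Among the 36 members at or above the filter value on both arrays, 2 were at least 2-fold higher and 4 lower, against 6.52% of 12340 such genes in either direction. Members just short of 2-fold were PMEPA1 (0.92), ACVR1 (-0.91) and ACVR2B (-0.89). In these bulk samples, fewer cells expressing a gene and less RNA per cell cannot be told apart.

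**Figure D1:**
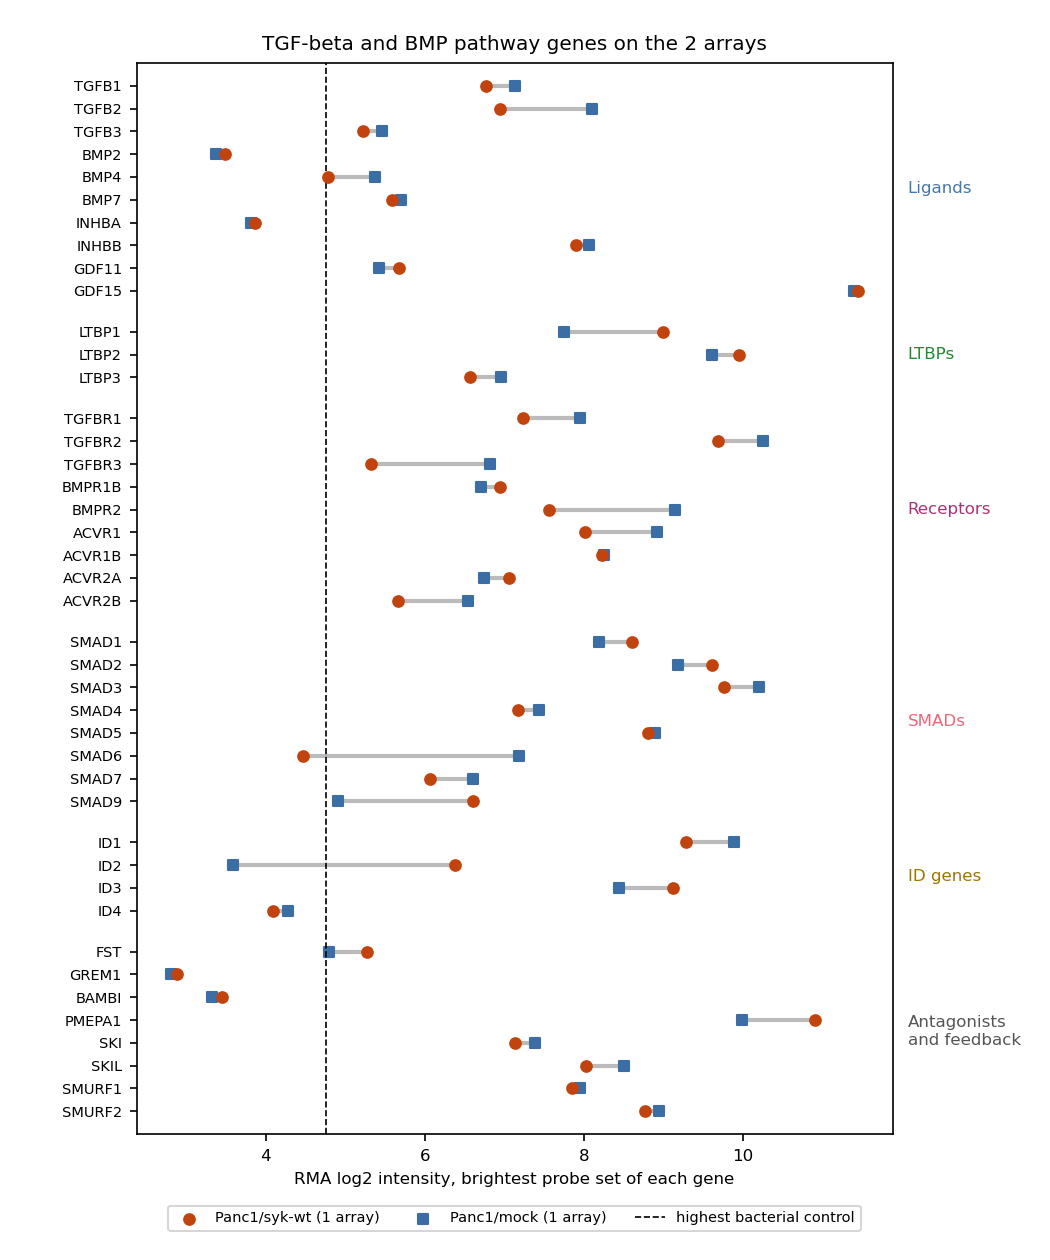
Level of each measured pathway gene on the syk-wt array (circles) and on the mock array (squares), 1 array each, as the RMA log2 intensity (x axis) of its brightest probe set, grouped by role. The dashed line marks the highest bacterial control (4.77); of the 7 genes past 2-fold, SMAD6 lies below it on syk-wt (4.48) and ID2 on mock (3.59).

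All ligands past the filter except GDF11 and GDF15 were below 0, and 1 of 8 passed 2-fold, against 7.26% of all genes. TGFB2, the TGF-beta isoform that depends most on the coreceptor TGFBR3, read 6.95 on the syk-wt array and 8.11 on the mock array, 2.23-fold lower. Its second-brightest probe set read 5.53 on syk-wt and 6.02 on mock, and the next 4.22 on syk-wt and 5.13 on mock, so that all 3 past the filter were lower on syk-wt. The dimmest of these lay below 4.77 on syk-wt and amounts to at least 1.29-fold. The remaining 2 TGFB2 probe sets lay below 4.77 on both arrays.

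TGFB1, the most studied isoform, read 6.77 on syk-wt and 7.13 on mock. TGFB3 read 5.22 on syk-wt and 5.46 on mock, and the morphogen BMP4 read 4.79 on syk-wt and 5.38 on mock in its only probe set, a difference of -0.59. These gaps and that of BMP7 (5.59 on syk-wt, 5.70 on mock) were all under 2-fold and all in the same direction.

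INHBB, the activin B subunit, read 7.90 on syk-wt and 8.06 on mock. GDF15, a stress-induced and distant family member, was bright and nearly equal at 11.45 on syk-wt and 11.40 on mock. By its _x_at suffix this probe set may cross-hybridise, and the next GDF15 probe set read 5.18 on syk-wt and 5.53 on mock. GDF11, a ligand close to myostatin, read 5.68 on syk-wt and 5.43 on mock in its brightest probe set, yet its next 2 were lower, by 0.50 and by at least 1.38-fold against 4.77, so it has no settled direction. BMP2 (3.49 on syk-wt, 3.38 on mock) and INHBA, the activin A subunit (3.87 on syk-wt, 3.81 on mock), lay below the bacterial control level on both arrays, and no fold is given for them.

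Of the latent TGF-beta binding proteins, most of which tether latent TGF-beta complexes to the extracellular matrix, LTBP1 was higher in syk-wt cells. It read 9.00 on syk-wt and 7.75 on mock, 2.37-fold higher, and its other probe set read 6.26 on syk-wt and 5.65 on mock. LTBP2, a matrix protein of the family that does not bind latent TGF-beta, was higher by 0.33 and 0.35 in its 2 probe sets (9.95 on syk-wt and 9.62 on mock in the brighter). LTBP3, which like LTBP1 binds latent TGF-beta, was lower by 0.19 to 0.40 in its 3 probe sets, at 6.57 on syk-wt and 6.95 on mock in the brightest.

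Receptors lay mostly below 0: 7 of 9 were lower on the syk-wt array, 2 of them by 2-fold or more and 0 higher by 2-fold, with a median of -0.72. Among all genes past the filter, 6124 of 12814 were below 0, 3.65% were lower by 2-fold or more and 3.61% higher. The receptor median fell short of this size when a gene's probe sets were averaged (-0.36) or their median was taken (-0.22), and with values floored at 4.77 beforehand it was -0.29 and -0.11. TGFBR3, or betaglycan, the coreceptor that presents TGFB2 to the signalling receptors, read 5.33 on syk-wt and 6.82 on mock, 2.81-fold lower. Its second probe set read 3.74 on syk-wt and 5.23 on mock. With 4.77 as the lowest level that is at least 1.38-fold, so 2-fold is shown by the brighter probe set alone.

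BMPR2, the type II receptor specific to BMPs, read 7.56 on syk-wt and 9.14 on mock, 2.99-fold lower. Its second-brightest probe set read 6.48 on syk-wt and 7.86 on mock, 2.60-fold lower. The other 4 lay between 3.51 and 5.16 on syk-wt and between 3.70 and 5.38 on mock, and 3 of them below 4.77 on both arrays, while the one above that level differed by -0.21. The BMPR2 difference rests on its 2 brightest probe sets.

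The other receptors were under 2-fold. ACVR1, a type I receptor for BMPs, read 8.01 on syk-wt and 8.92 on mock in its only probe set, 1.87-fold lower. ACVR2B, a type II receptor for activins, read 5.66 on syk-wt and 6.55 on mock, with its 2 dimmer probe sets below 4.77 on both arrays. TGFBR1 and TGFBR2, the type I and type II receptors that bind TGF-beta itself, were lower as well. TGFBR1 read 7.23 on syk-wt and 7.95 on mock, and TGFBR2 read 9.68 on syk-wt and 10.26 on mock. All other probe sets of these genes lay below 4.77 on both arrays.

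Against this direction, ACVR2A, the other activin type II receptor, read 7.06 on syk-wt and 6.75 on mock, and its second probe set also lay higher (0.38). BMPR1B, a BMP type I receptor, was higher by 0.25 and 0.17 in its 2 bright probe sets (6.95 on syk-wt and 6.70 on mock in the brightest), and its other one lay below 4.77 on both arrays. The activin type I receptor ACVR1B, at 8.22 on syk-wt and 8.25 on mock, was level. Receptors for TGF-beta, BMPs and activins were all found among the lower ones.

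**Figure D2:**
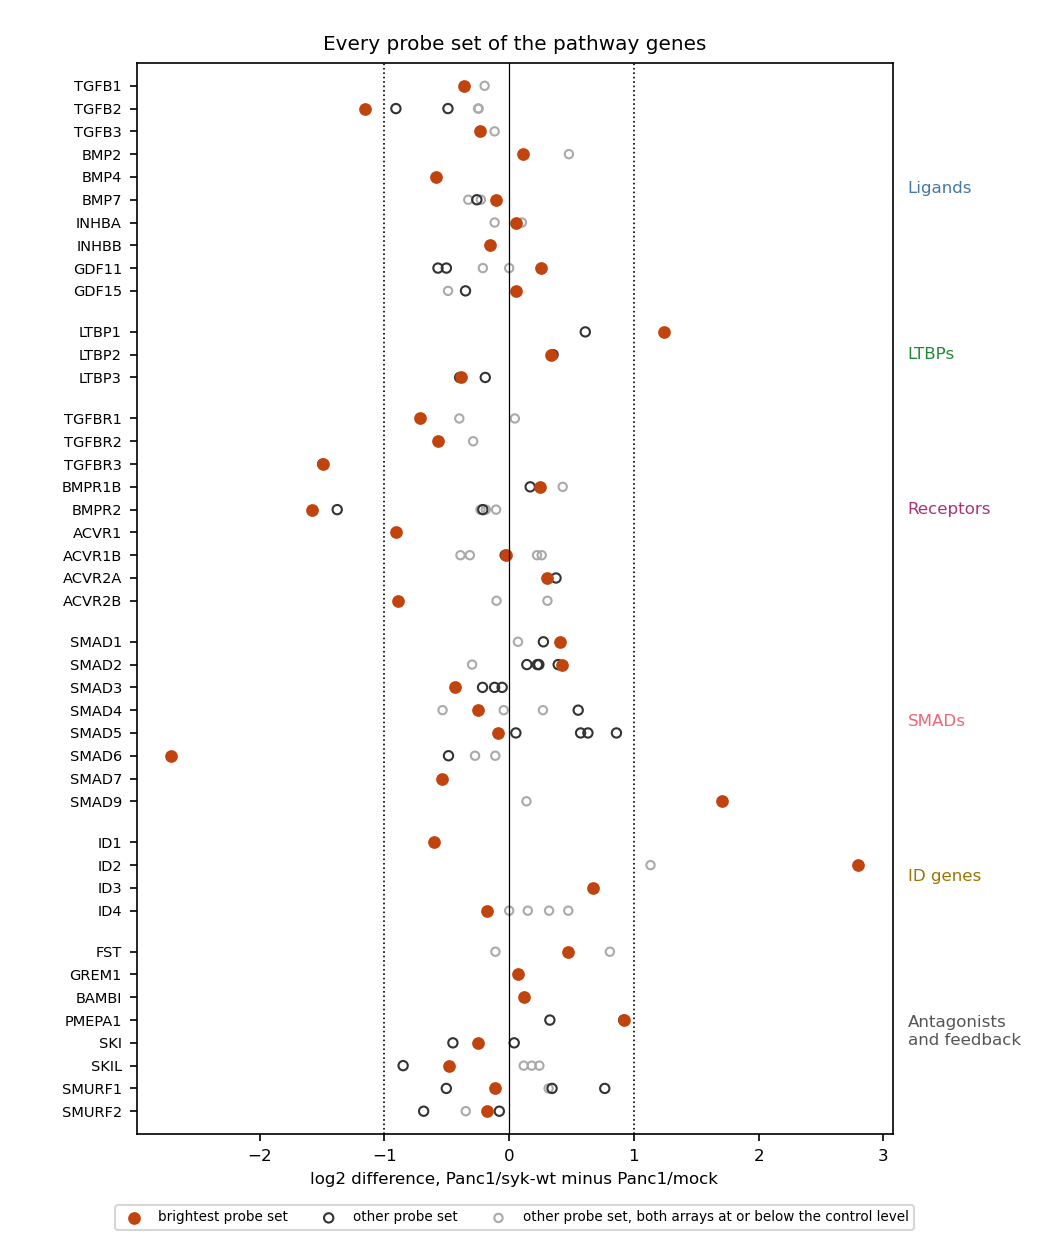
Log2 difference, syk-wt minus mock (x axis), in every probe set of each measured pathway gene, with the brightest as filled points and the others open (grey where both arrays lay at or below 4.77). Dotted lines mark 2-fold; the 2 TGFBR3 points coincide at -1.49, the dimmer one with its syk-wt value (3.74) below 4.77, whereas for SMAD6 1 point lies at -2.71 and the others between -0.49 and -0.11.

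Both inhibitory SMADs were on the lower side. SMAD6, which inhibits BMP receptor signalling, read 4.48 on syk-wt and 7.19 on mock, at least 5.36-fold lower against the bacterial control level. The other 3 SMAD6 probe sets did not show a gap of this size: the next brightest read 4.84 on syk-wt and 5.32 on mock, and 2 lay below 4.77 on both arrays. SMAD7, which inhibits both arms, read 6.07 on syk-wt and 6.61 on mock, 1.45-fold lower in its only probe set. Of the inhibitory SMADs, SMAD6 alone passed 2-fold, in 1 of 4 probe sets.

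The BMP-activated SMADs were level or higher. SMAD9 read 6.61 on syk-wt and 4.91 on mock, 3.25-fold higher, while its other probe set lay below 4.77 on both arrays (3.65 on syk-wt and 3.51 on mock). SMAD1 read 8.60 on syk-wt and 8.20 on mock, and was also higher in its second probe set, while another lay below 4.77 on both arrays. For SMAD5 the brightest probe set read 8.80 on syk-wt and 8.89 on mock, but the next, almost as bright (means of 8.85 and 8.84), read 9.15 on syk-wt and 8.52 on mock, and the others differed by 0.05, 0.86 and 0.57. SMAD5 was therefore lower by 0.09 in 1 probe set and higher in 4.

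Of the SMADs used by TGF-beta and activin receptors, SMAD2 was higher and SMAD3 lower, both under 2-fold. SMAD2 read 9.61 on syk-wt and 9.19 on mock, and its 5 probe sets past the filter were all above 0 (0.14 to 0.43). SMAD3 read 9.76 on syk-wt and 10.20 on mock, with all 4 below 0 (-0.44 to -0.06). SMAD4, the shared partner, read 7.18 on syk-wt and 7.43 on mock, whereas its second probe set was higher by 0.55. The median over the 8 SMADs was -0.17 and turned to 0.09 when probe sets were averaged, 0.23 when their median was taken and 0.27 with probe sets ending in a number and _at alone, so the SMADs as a group had no settled direction.

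The ID genes, whose helix-loop-helix proteins bind and block basic helix-loop-helix transcription factors, went opposite ways. ID2 read 6.38 on syk-wt and 3.59 on mock, at least 3.07-fold higher against the bacterial control level. The second ID2 probe set, of a kind that may cross-hybridise by its _x_at suffix, read 4.35 on syk-wt and 3.21 on mock, both below 4.77.

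ID3 read 9.12 on syk-wt and 8.45 on mock, 1.60-fold higher. ID1 read 9.28 on syk-wt and 9.89 on mock, 1.52-fold lower. Each had 1 probe set, and neither passed 2-fold. ID4 (4.10 on syk-wt, 4.28 on mock) lay below the bacterial control level on both arrays in all 5 probe sets. The median over the 3 ID genes past the filter was 0.68, and it was 0.25 with ID4 included and 0.04 under a filter set at the 75th percentile, which left out ID2.

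The promoters of the ID genes that parted, and of SMAD6 and BMPR2, the SMAD and the receptor with the largest differences toward lower signal, are shown because SMADs bind such regions in many target genes. The windows are from RefSeq (GRCh38.p14), run from 250 bases before to 50 after an annotated start, and are written 5′ to 3′ on the strand of the gene. Capitals mark CAGAC, a short SMAD-binding element, or its complement, the palindromic element GTCTAGAC, and the GC-rich element GGCGCC, searched on both strands; none of these overlaps another by its letters. ID1 lies at chr20:31605039-31605338 and ID2 at chr2:8681806-8682105, both on the plus strand, and ID3 at chr1:23559452-23559751 on the minus strand. SMAD6 lies at chr15:66701986-66702285 and BMPR2 at chr2:202376077-202376376, both on the plus strand.
ID1: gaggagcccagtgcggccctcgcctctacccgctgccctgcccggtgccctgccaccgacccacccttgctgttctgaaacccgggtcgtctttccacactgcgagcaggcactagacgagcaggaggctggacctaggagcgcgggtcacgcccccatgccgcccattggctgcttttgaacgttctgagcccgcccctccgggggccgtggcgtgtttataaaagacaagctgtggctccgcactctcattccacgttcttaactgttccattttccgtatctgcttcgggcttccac
ID2: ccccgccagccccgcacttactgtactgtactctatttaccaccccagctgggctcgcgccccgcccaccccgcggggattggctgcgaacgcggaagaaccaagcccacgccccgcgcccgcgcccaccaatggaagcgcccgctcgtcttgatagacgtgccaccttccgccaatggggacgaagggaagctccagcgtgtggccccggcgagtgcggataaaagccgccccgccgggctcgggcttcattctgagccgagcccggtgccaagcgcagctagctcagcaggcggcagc
ID3: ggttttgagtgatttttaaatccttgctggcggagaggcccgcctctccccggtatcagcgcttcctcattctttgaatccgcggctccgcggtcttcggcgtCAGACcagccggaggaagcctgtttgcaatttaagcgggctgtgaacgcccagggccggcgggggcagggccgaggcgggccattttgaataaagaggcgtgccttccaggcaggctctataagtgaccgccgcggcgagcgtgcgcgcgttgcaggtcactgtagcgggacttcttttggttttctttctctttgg
SMAD6: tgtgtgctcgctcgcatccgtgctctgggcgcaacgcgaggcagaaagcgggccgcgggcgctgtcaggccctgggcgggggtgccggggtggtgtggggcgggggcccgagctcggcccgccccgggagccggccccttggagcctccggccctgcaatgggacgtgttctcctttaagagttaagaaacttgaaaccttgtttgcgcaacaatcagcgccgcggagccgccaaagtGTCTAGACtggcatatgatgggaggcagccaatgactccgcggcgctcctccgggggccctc
BMPR2: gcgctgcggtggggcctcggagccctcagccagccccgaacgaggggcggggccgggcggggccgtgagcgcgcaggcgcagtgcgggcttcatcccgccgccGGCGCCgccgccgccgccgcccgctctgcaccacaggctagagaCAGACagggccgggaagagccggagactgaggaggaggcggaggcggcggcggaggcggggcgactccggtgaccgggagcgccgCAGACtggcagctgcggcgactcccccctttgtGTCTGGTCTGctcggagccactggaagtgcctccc

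The SMAD6 window holds the palindrome GTCTAGAC at bases 239 to 246, just before the annotated start. Of all 35116 RefSeq windows of this length, 71 (0.202%) hold it, and SMAD6 is the only 1 of the 40 members with a window that does. The short element CAGAC is common: it is found in 45.3% of all windows and in 54.1% of the 74 member windows, which belong to 40 members because some genes have several starts. It occurs 4 times in the BMPR2 window, once in that of ID3, and not in those of ID1, ID2 and SMAD6. GGCGCC is in 19.2% of all windows and in 24.3% of the member windows, BMPR2 among them, and the E-box CACGTG, searched for comparison, in 7.26% of all windows and 9.46% of the member windows. The ID1 and ID2 windows, whose genes differed in opposite directions, hold none of the marked letters. These are matches of letters only, and binding was not measured.

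Among the members, the extracellular antagonists FST and GREM1 lay near or below the bacterial control level, and intracellular feedback regulators were under 2-fold. Outside the members, some extracellular binders lay above that level and others below it on both arrays. Of 28 measured binders and activators, 17 passed the filter, NOG, NBL1 and FSTL3 among them. NOG read 6.38 on syk-wt and 7.14 on mock, NBL1 7.99 on syk-wt and 8.94 on mock, and FSTL3 6.78 on syk-wt and 6.74 on mock. FST, follistatin, which traps activins, read 5.27 on syk-wt and 4.80 on mock, 1.38-fold higher. Its other probe sets lay below 4.77 on both arrays. The BMP antagonist GREM1 (2.88 on syk-wt, 2.81 on mock) and the pseudoreceptor BAMBI (3.45 on syk-wt, 3.33 on mock) lay below 4.77 on both arrays, so no fold is given. PMEPA1, a TGF-beta-induced membrane protein that restrains SMAD signalling, read 10.91 on syk-wt and 9.99 on mock, 1.89-fold higher, and its other probe sets were higher by 0.92 and 0.33.

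SKIL, a corepressor of SMADs, read 8.02 on syk-wt and 8.51 on mock, and its second probe set 6.08 on syk-wt and 6.93 on mock. Its relative SKI read 7.13 on syk-wt and 7.38 on mock, with a second probe set at 0.04 and another at -0.45. The ubiquitin ligase SMURF2 read 8.77 on syk-wt and 8.95 on mock, and SMURF1 read 7.85 on syk-wt and 7.96 on mock. The next 2 SMURF1 probe sets were higher, by 0.77 and 0.34, so it has no settled direction. PMEPA1 and SKIL, both TGF-beta-induced feedback genes, thus lay on opposite sides of 0.

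**Figure D3:**
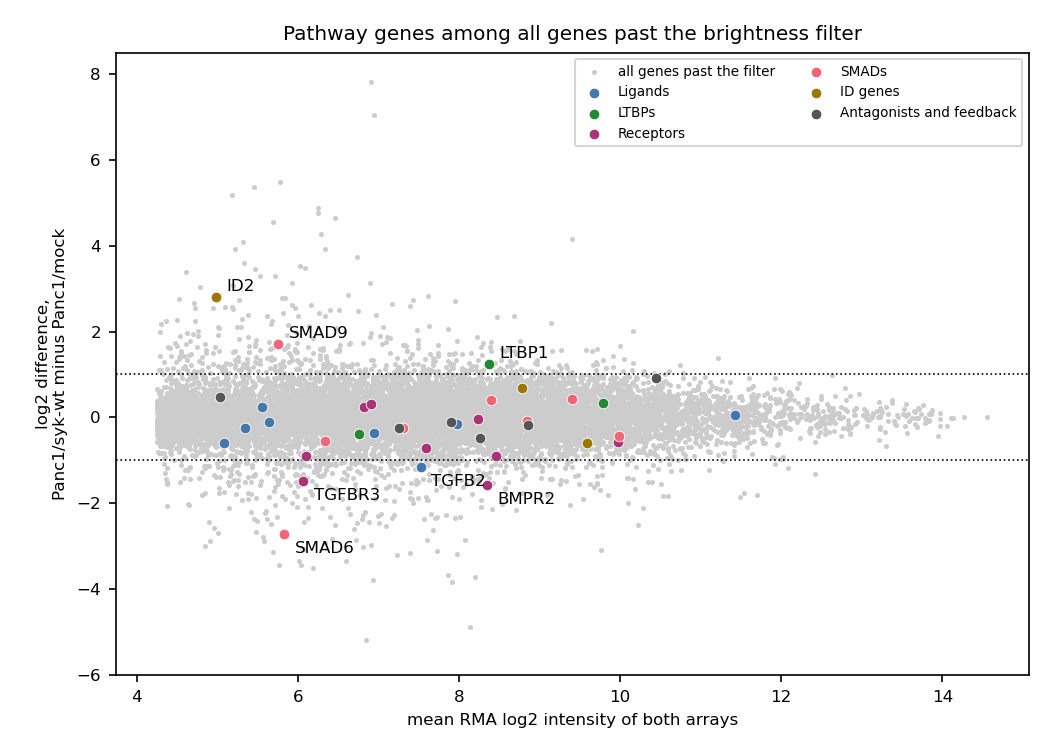
Log2 difference, syk-wt minus mock (y axis), against mean RMA log2 intensity (x axis) for the 12814 genes past the filter (grey) and the 37 pathway members past it (coloured by role). Dotted lines mark 2-fold; ID2, SMAD9 and LTBP1 lie above them and TGFB2, TGFBR3, BMPR2 and SMAD6 below.

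Probe sets of 1 gene gave some measure of precision. Of the 26 members with several probe sets past the filter, 19 had probe sets of 1 sign, 7 above 0 and 12 below, and 7 had both signs, with values below 4.77 taken as they are. The same count over all genes was not made, so this count cannot be read as precision. The pooled SD of the difference between probe sets of a gene was 0.35 over 6028 genes. It covers probe behaviour and transcript variants, not variation between cultures. When the probe sets of a gene were averaged, or their median was taken, 5 of the 7 members past 2-fold fell short of it: TGFB2 (-0.61 and -0.49), BMPR2 (-0.62 and -0.22), SMAD6 (-0.90 and -0.38), SMAD9 (0.92 in both) and LTBP1 (0.93 in both). TGFBR3 (-1.49 in both) and ID2 (1.97 in both) did not, but these averages use values below 4.77. Of 36 members with the mean and 32 with the median, 1 was thus higher and 1 lower by 2-fold or more. Among all genes, 4.82% with the mean and 5.09% with the median passed 2-fold. All values were also floored at 4.77 before averaging, an alternative added after the data were seen. Mean and median were then both -0.98 for TGFBR3 and 0.81 for ID2. With either, 0 members passed 2-fold, against 3.84% of all genes with the mean and 4.20% with the median. A probe set below 4.77 on both arrays counts as no difference in such an average, which moves it toward 0.

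**Figure D4:**
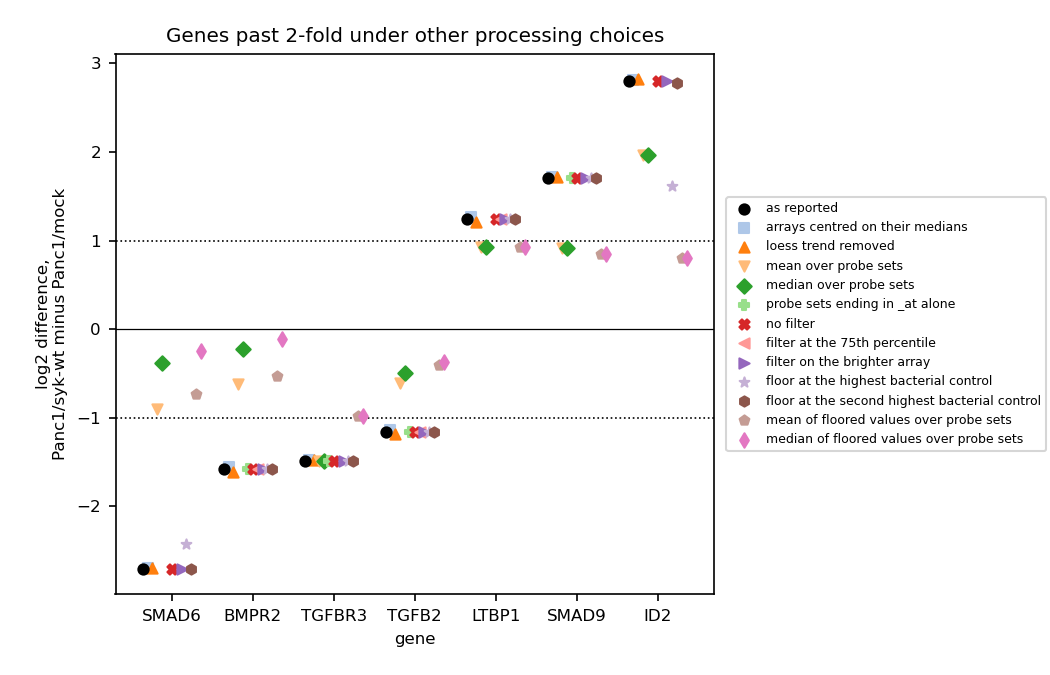
Log2 difference, syk-wt minus mock (y axis), of the 7 members past 2-fold (x axis) as reported and under each alternative that gave a value; dotted lines mark 2-fold. All 7 fall short of the lines when values are floored at 4.77 before the mean or median over probe sets is taken, and all but TGFBR3 and ID2 also without the floor.

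Further genes of the pathway went both ways. Past 2-fold were 16.7% of other ligands, 25% of other receptors and coreceptors, 11.8% of binders and activators and 3.70% of mediators. The share of all genes past the filter was 7.26%, and the shares of these short lists rest on few genes. Among other ligands, 1 of 6 past the filter passed 2-fold: BMP6, a BMP, read 8.05 on syk-wt and 7.01 on mock, 2.06-fold higher by its brightest probe set, while its other 2 lay below 4.77 on both arrays. Among other receptors and coreceptors, 1 of 4 passed: the coreceptor ENG, endoglin, a relative of TGFBR3, read 5.66 on syk-wt and 6.86 on mock, 2.30-fold lower, with its second probe set at 3.98 on both. Among 17 other extracellular binders and activators, 1 was higher and 1 lower. TWSG1, twisted gastrulation, a BMP-binding protein, read 8.58 on syk-wt and 10.07 on mock, 2.81-fold lower, and its second probe set gave the same difference of -1.49. NRROS, which anchors latent TGF-beta on the cell surface, read 7.04 on syk-wt and 5.88 on mock in its only probe set, 2.24-fold higher. Among 27 other intracellular mediators, 0 were higher and 1 was lower by 2-fold: CTDSP2, a phosphatase that acts on SMADs, read 8.44 on syk-wt and 9.55 on mock, but 7.41 on syk-wt and 7.38 on mock in its second probe set. The medians of these lists ran from -0.25 to 0.03.

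Genes known to respond to the pathway did not share 1 direction. Of 26 TGF-beta response genes past the filter, 1 was higher and 2 lower by 2-fold, with a median of -0.14. In all, 18 of the 26 were below 0, against 6124 of the 12814 genes past the filter. The gelatinase MMP2 read 6.18 on syk-wt and 9.03 on mock, 7.18-fold lower, with its other 2 probe sets below 4.77 on both arrays. COL1A1, a chain of type I collagen, read 10.06 on syk-wt and 11.16 on mock, 2.13-fold lower, and its other 3 probe sets above 4.77 were lower by 0.09 to 0.81. Fibronectin, FN1, read 6.32 on syk-wt and 5.12 on mock, 2.29-fold higher. The next brightest probe set read 5.93 on syk-wt and 4.93 on mock, and 3 of its 7 lay below 4.77 on both arrays.

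Of 16 BMP response genes, 1 was higher and 2 lower by 2-fold, with a median of -0.23, and 7 were above 0 and 9 below. HEY2, a transcriptional repressor also known as a Notch target, read 7.06 on syk-wt and 5.62 on mock, 2.72-fold higher, with its other probe set below 4.77 on both arrays. GATA2, a zinc finger transcription factor, read 6.24 on syk-wt and 7.27 on mock, 2.04-fold lower. Its second probe set did not show this gap, at 5.72 on syk-wt and 5.86 on mock, and another lay below 4.77 on both arrays. DLX2, a homeobox factor, read 6.31 on syk-wt and 7.34 on mock, 2.05-fold lower, with its second probe set below 4.77 on both arrays. Against the 7.26% of all genes past 2-fold, the shares were 11.5% of the TGF-beta response genes and 18.8% of the BMP response genes, resting on 3 genes each. The lists, like the members, were chosen with earlier results of these data known, so these shares are no test of enrichment. When probe sets were averaged, the genes of these 6 lists past 2-fold numbered 2 higher and 1 lower, in place of 4 and 7.

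**Figure D5:**
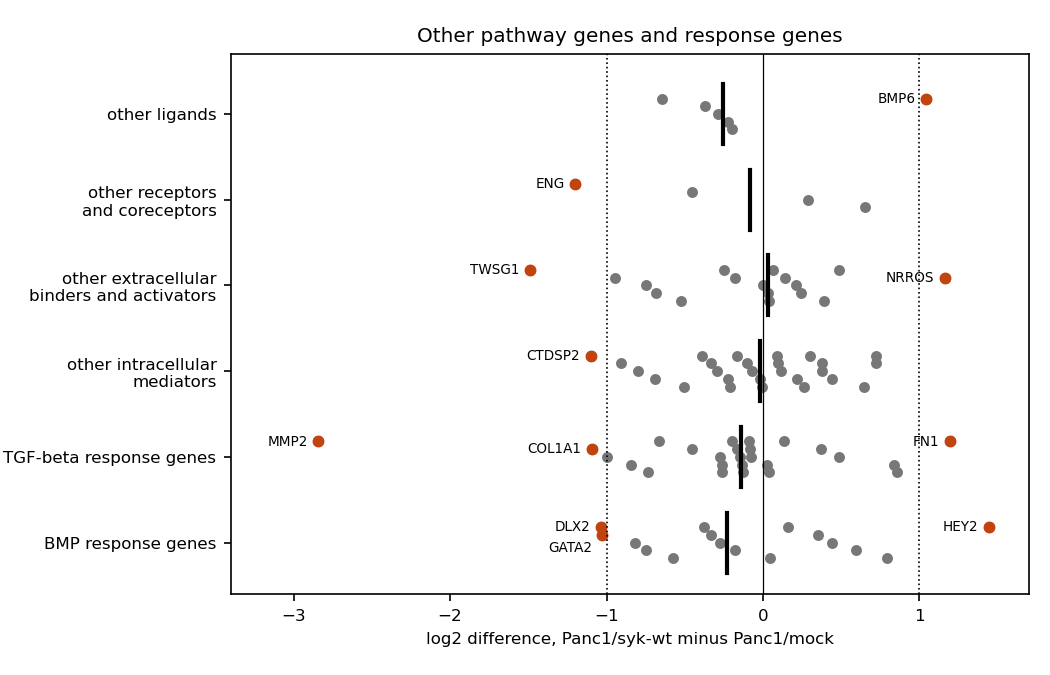
Log2 difference, syk-wt minus mock (x axis), of the genes past the filter in 6 further lists, with black bars at the list medians and dotted lines at 2-fold. Genes past 2-fold are named; the list medians lie between -0.25 and 0.03.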

How the data were processed

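RNA from 1 Panc1/syk-wt and 1 Panc1/mock sample was measured on 1 array each. The deposited values were taken as log2 intensities: per the submitters' processing notes the authors used RMA (background correction, quantile normalisation and summary of probes), with version and settings not given in the sources used here. The values run from 2.14 to 14.6, from which the log base was inferred, and 0 array columns were left unused. Of all probe sets, 41097 had 1 symbol in the platform annotation, and all 128 of the members matched RefSeq by gene ID. Differences are syk-wt minus mock, computed with pandas 2.3.3 over the whole table. A fold against a value at or below 4.77 is given as at least the brighter value over 4.77. All genes given with values of their own are members, or list genes past 2-fold, besides SYK, markers, the controls ACTB and GAPDH, and the binders NOG, NBL1 and FSTL3. Members and lists were chosen with earlier results of these data known. The calculation was tested on simulated data. Alternatives covered scaling, probe set choice, filter and floor, and 2 more were chosen after seeing the data. The number of arrays limits the precision.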

Additional observations from a re-analysis of the deposited data

How the results depend on the processing

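The 10 alternatives were computed, and 2 more were chosen after seeing the data. These 2 floor all values at 4.77 before taking the mean or the median over probe sets. Of 412 single-gene values, 373 moved by less than 0.35, the SD between probe sets of a gene. No member past 2-fold turned its sign. Under 2-fold, GDF11, GDF15 and SMURF1 each turned it under 3 alternatives, SMAD4 under 2 and SMAD5 under 4. A change of filter cannot move a gene's value, and floors on the brightest probe set move only values below the floor. Centring shifts all genes alike, so much of the 373 was fixed in advance and is no measure of robustness. The members at least 2-fold higher numbered 1 (not 3) with the mean or the median over probe sets, with probe sets ending in a number and _at alone and under a filter set at the 75th percentile, and those lower numbered 1 (not 4) with the mean or the median and 2 with that filter. With the floored mean or median, 0 members were higher and 0 lower. All genes past 2-fold numbered 930 (7.26%) as reported, 562 (4.82%) with the mean and 571 (5.09%) with the median. They numbered 447 (3.84%) with the floored mean, 471 (4.20%) with the floored median and 486 (6.05%) under that filter. The other pathway and response genes past 2-fold numbered 4 higher and 7 lower, against 2 and 1 with the mean or the median and 1 and 1 with either floored, and the higher ones 2 with _at alone and 1 with that filter. Fewer genes entered under the stricter filter and with _at alone, and LTBP1 and ID2 have no probe set ending that way. Floors on the brightest probe set kept 3 members higher and 4 lower. Dim signal limits SMAD6 and ID2, whose lower values lie below the control level. It also limits SMAD9 (4.91 on mock), FST (4.80 on mock) and BMP4 (4.79 on syk-wt), whose lower values lie just above it. No paired analysis was possible because each group has 1 array.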

Other observations

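A probe set annotated to both ID2 and ID2B was left out of the counts, since it names 2 genes. It read 3.01 on the syk-wt array and 2.76 on the mock array, both below the bacterial control level.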
